A study of Mus musculus with 8 samples.

Results

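Lysophospholipids are phospholipids that carry a single acyl chain, and 17 of their elemental formulas were looked up among the 2429 neutral masses of a faecal metabolite table. The formulas covered lysophosphatidylcholine (LPC, 8 formulas), lysophosphatidylethanolamine (LPE, 5 formulas), lysophosphatidylglycerol (LPG, 2 formulas) and lysophosphatidylinositol (LPI, 2 formulas). A mass within 3 ppm of a formula was taken as a match, and 8 masses matched 8 of the 17 formulas. Streptomycin samples were faeces of female mice of the inbred C57BL/6 strain, collected 24 h after 20 mg of streptomycin by oral gavage, and there were 4 of them. Untreated samples were 4 faecal samples of female C57BL/6 mice without treatment. Per the labels the mice were age-matched, with no age given, and untreated faeces were collected before the drug. The labels do not tie a sample to a mouse, so p-values speak of the spread among these faecal samples, and drug and time of collection cannot be told apart. Streptomycin is an aminoglycoside antibiotic that acts on the bacterial ribosome.

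A lysophospholipid forms when a phospholipase removes an acyl chain from a diacyl phospholipid, which also releases a free fatty acid. In the small intestine pancreatic phospholipase A2 does this to phosphatidylcholine (PC) of bile and diet, and the enterocyte takes up the LPC and builds it back into PC. Choline head groups are typical of animal membranes and bile, whereas ethanolamine and glycerol head groups are also the main ones of many gut bacteria. Names give the head group, the carbons of the acyl chain and, after the colon, its double bonds.

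Faecal extracts were infused directly into an FT-ICR (Fourier-transform ion cyclotron resonance) mass analyser, which weighs ions precisely enough to narrow down a formula but does not separate isomers. Each sample had 2 acquisitions, whose mean relative intensity was the sample's value, and an unlisted mass counts as 0. Streptomycin samples listed 1633 to 1768 masses with a summed intensity of 21599.8 to 23221.1, against 1210 to 1270 masses and 19761.2 to 20139.7 in untreated samples. The calibrant mass at 621.0216 Da averaged 193 ± 21.7 in streptomycin samples and 147 ± 9.31 in untreated samples (SD, n = 4 each), a log2 difference of 0.39. The second calibrant mass, 921.0027 Da, differed by 0.46 on the log2 scale in the same direction.

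The choline head group held most of the matches. LPC was matched by 6 of 8 formulas, LPE by 2 of 5, and LPG and LPI by 0 of 2 each. The LPC masses were 493.3169 Da (LPC 16:1), 495.3326 Da (LPC 16:0), 517.3171 Da (LPC 18:3), 519.3326 Da (LPC 18:2), 521.3481 Da (LPC 18:1) and 523.3638 Da (LPC 18:0). The LPE masses were 477.2862 Da (LPE 18:2) and 481.3170 Da (LPE 18:0). LPE 18:2 lay 1.38 ppm from its formula, and the other 7 lay within 0.50 ppm. LPC 14:0, LPC 20:4, LPE 16:0, LPE 18:1, LPE 20:4, LPG 16:0, LPG 18:1, LPI 16:0 and LPI 18:0 had no mass within 3 ppm. A match is a formula: LPC 16:0 shares its formula with LPE 19:0, LPE 18:0 with LPC 15:0, and LPC 18:0 with the C16 form of platelet-activating factor, and the position of the chain on glycerol is not resolved.

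The 2 acquisitions of streptomycin sample 1 were unlike those of the other samples. Among masses listed in both, 881 of 1693 (52.04%) were equal within 0.1%, against 1.96 to 2.43% in the other streptomycin samples and 0.833 to 2.03% in untreated samples. LPC 18:3 and LPE 18:0 were among the equal ones, 2 of the 7 members listed in both. The other 5, all LPC, had a second acquisition 1.105 to 1.140 times the first. Of related lipids listed in both, 4 of 5 free fatty acids, 1 of 6 diacyl phospholipids and 0 of 3 monoacylglycerols were equal. Ion mode, which the table does not name, was not tested as a part of this.

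**Figure D1:**
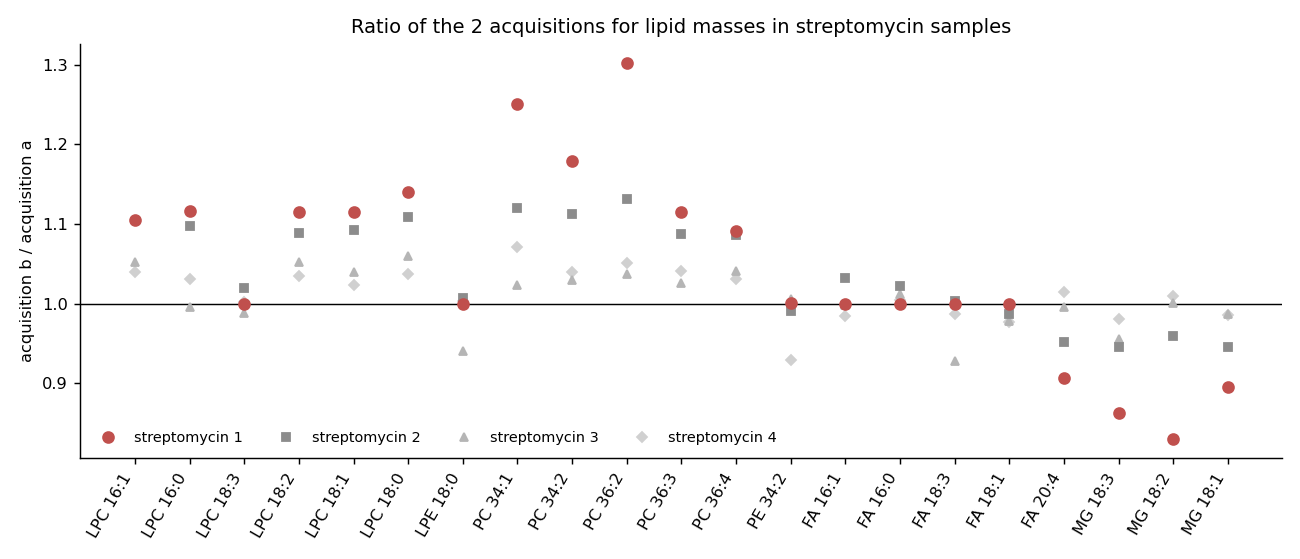
Second over first acquisition (b over a) of each lysophospholipid and related lipid mass listed in both acquisitions, for the 4 streptomycin samples, with a line at 1. PC and PE are diacyl phospholipids, FA free fatty acids and MG monoacylglycerols. In streptomycin sample 1 LPC 18:3 and LPE 18:0 lie on the line, and 5 LPC masses lie at 1.105 to 1.140.

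Of the 8 lysophospholipid masses, 7 were listed in streptomycin samples only, as were 47.3% of all 2429 masses, and 1, LPC 16:0, was listed in both groups. Among the 7, LPC 18:3 had the same intensities as a mass at 518.3245 Da, which untreated samples also listed. A limma fit of log2 intensities over all masses called all 8 higher in streptomycin samples and 0 lower (Benjamini-Hochberg adjusted p under 0.05), and 52.7% of all masses higher and 36.7% lower. Without streptomycin sample 1 the count was also 8. For the 7 this call is no more than a restatement of the listing: they entered the test through the group where they are high and were set against a constant put in for 0, with no spread in untreated samples. They are therefore given below as intensities, without a fold change or p. The call for LPC 16:0 alone compares measured intensities of both groups.

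LPC 16:0, the palmitoyl form, was the only member listed in both groups. Its intensity was 57.4, 33.2, 59.7 and 72.2 in streptomycin samples 1 to 4, against 8.21, 4.50, 5.86 and 3.35 in untreated samples 1 to 4. Every streptomycin sample lay above every untreated sample. The means were 55.6 ± 16.3 in streptomycin samples and 5.48 ± 2.09 in untreated samples (SD, n = 4 each), a ratio of 10.2. The log2 difference was 3.37 ± 0.34 (SE), with an adjusted p of 2.93e-05 in the limma fit of all masses and 0.000158 in a limma fit of the 633 masses listed in both groups. Without streptomycin sample 1 the log2 difference was 3.33, with a limma adjusted p of 0.000151. In the second fit 18.3% of masses were higher and 36.2% lower, and the median log2 difference was −0.47. Only 7 of the 633 masses had a larger log2 difference than LPC 16:0. Both calibrant masses were among those called higher in this fit, with limma adjusted p of 0.0388 and 0.0271. The fit was not scaled to them. With calibrant scaling 55 of the 633 masses were higher and 293 lower.

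**Figure D2:**
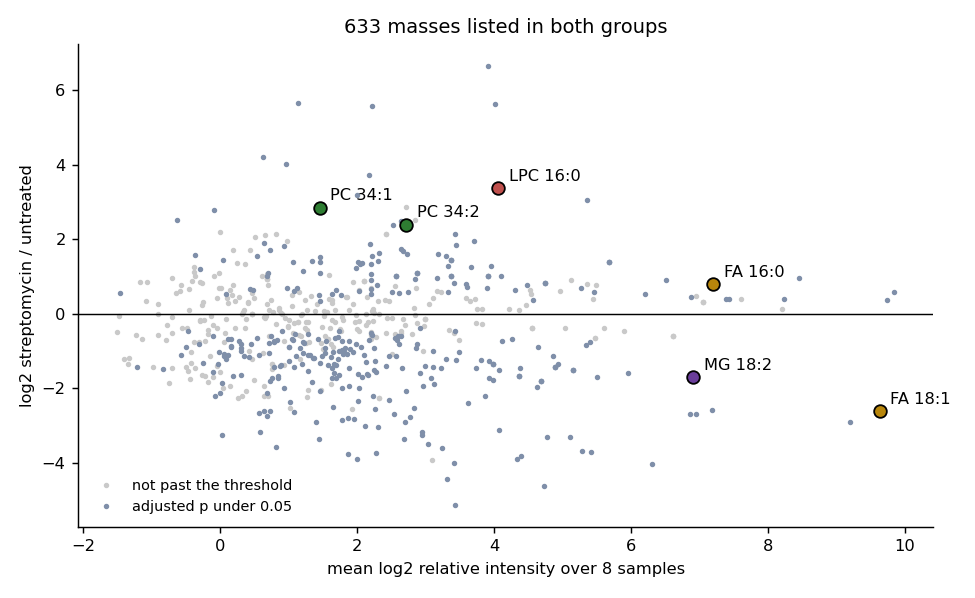
Log2 difference, streptomycin over untreated, against mean log2 intensity over 8 samples for the 633 masses listed in both groups, darker where the limma adjusted p is under 0.05, with LPC 16:0, diacyl PC, fatty acids (FA) and a monoacylglycerol (MG) named. LPC 16:0 stands at 3.37, against a median of −0.47 for the masses plotted.

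The C18 choline forms followed LPC 16:0 in intensity within streptomycin samples. LPC 18:2, the linoleoyl form, had 22.2, 14.9, 38.4 and 35.96 in streptomycin samples 1 to 4 and was listed at 0 in all untreated samples. LPC 18:0, the stearoyl form, had 20.6, 14.8, 13.03 and 21.4 in streptomycin samples and 0 in untreated samples. LPC 18:1, the oleoyl form, had 13.9, 7.75, 17.9 and 20.0 in streptomycin samples and 0 in untreated samples. For these 3 masses every streptomycin sample therefore had an intensity and no untreated sample did. Their means in streptomycin samples were 27.9 ± 11.2 for LPC 18:2, 17.5 ± 4.16 for LPC 18:0 and 14.9 ± 5.40 for LPC 18:1 (SD, n = 4).

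The remaining choline masses were weak. LPC 18:3 had 3.11, 3.55, 3.23 and 4.65 in streptomycin samples 1 to 4 and 0 in untreated samples. These intensities also stand under the masses 518.3245 and 482.3477 Da, the first of which untreated samples also listed. LPC 16:1 had 2.15, 0.54, 1.83 and 2.52 in streptomycin samples and 0 in untreated samples. Both were listed in all 4 streptomycin samples, and LPC 16:1 in streptomycin sample 2 was listed in 1 of its 2 acquisitions. Of the 6 LPC masses, 5 were highest in streptomycin sample 4 and 4 were lowest in streptomycin sample 2.

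The ethanolamine masses were weaker than the choline masses of the same chain. LPE 18:2 had 0, 2.60, 3.28 and 1.46 in streptomycin samples 1 to 4 and 0 in untreated samples. LPE 18:0 had 3.53, 4.14, 2.01 and 1.30 in streptomycin samples and 0 in untreated samples. LPE 18:0 was highest in streptomycin sample 2, where 4 LPC masses were lowest, and lowest in sample 4. LPE 18:2 was missing from streptomycin sample 1 alone, and in that sample LPE 18:0 was second highest.

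**Figure D3:**
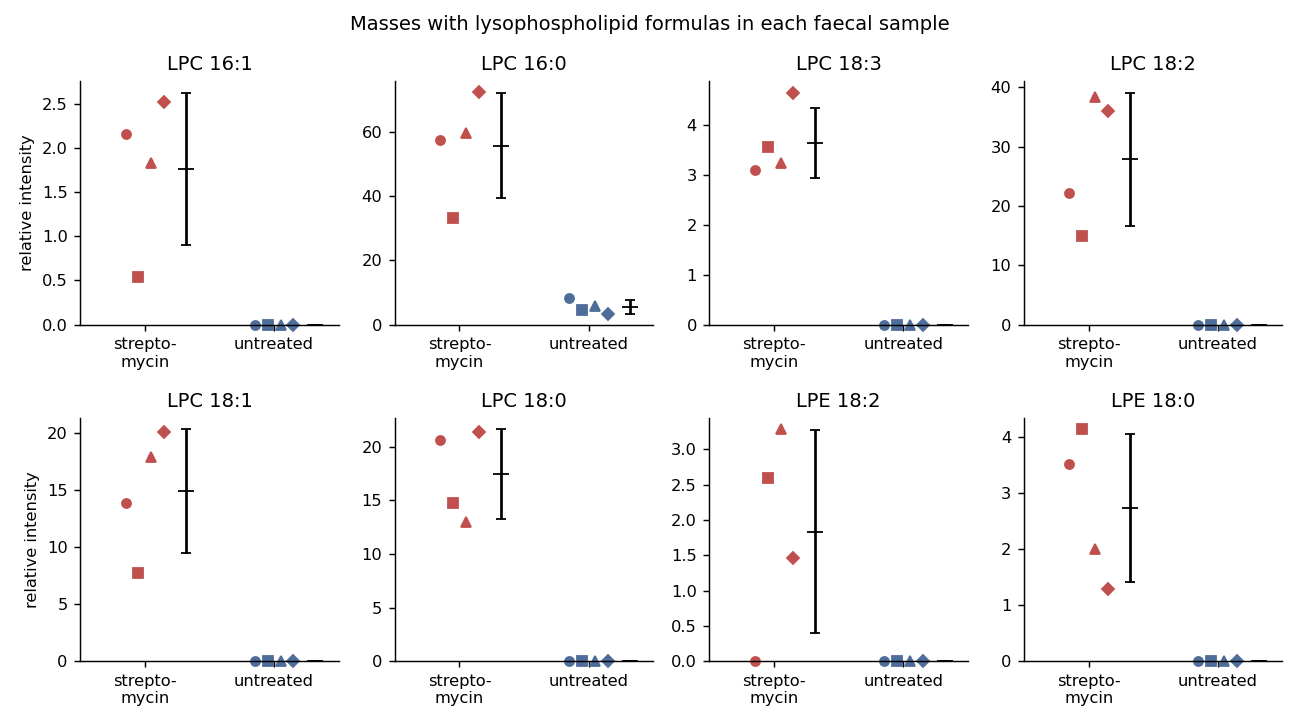
Relative intensity (linear axis from 0, scaled per panel) of the 8 matched lysophospholipid masses in 4 streptomycin samples and 4 untreated samples, with 1 point per sample, marker shape for the sample number, and mean with SD as black bars. Untreated points stand above 0 for LPC 16:0 alone, at 3.35 to 8.21.

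Listing at 0 does not give an upper limit, since the sources used here do not give the rule by which a mass was listed. In streptomycin samples LPC 18:2 stood at 38.7 to 64.4% of LPC 16:0, LPC 18:0 at 21.8 to 44.6% and LPC 18:1 at 23.3 to 29.9%. In untreated samples LPC 16:0 itself stood at 3.35 to 8.21. Between 470 and 530 Da untreated samples listed 125 to 133 masses, of which the lowest had 0.1595 and the medians were 2.57 to 2.98.

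Summed LPC intensity was 119.4, 74.8, 134.1 and 156.8 in streptomycin samples 1 to 4, 0.544 ± 0.155% of all intensity, against 0.0275 ± 0.0105% in untreated samples (SD, n = 4 each). The untreated sum was that of the palmitoyl form alone, since the other LPC masses counted as 0 there. It leaves out the masses 499.3664 and 501.3817 Da, taken up below, which averaged 3.70 and 1.19 in untreated samples. Whether these masses are LPC in another ion form was not tested, so the contrast between groups holds for the listed LPC masses only. Summed LPE was 3.53, 6.75, 5.30 and 2.75 in streptomycin samples, 0.0207 ± 0.0085% of all intensity, and 0 in untreated samples. The sample with the lowest LPC sum thus had the highest LPE sum, and the one with the highest LPC sum had the lowest.

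Within streptomycin samples LPC 16:0 kept a similar share of the LPC sum, whereas several other LPC masses did not. LPC 16:0 held 45.8 ± 1.73% of it (SD, n = 4), with a range of 44.4 to 48.1%. LPC 18:2 held 22.5 ± 4.46%, LPC 18:0 held 15.1 ± 4.40% and LPC 18:1 held 12.0 ± 1.32%. LPC 18:3 and LPC 16:1 held 3.18 ± 1.07% and 1.37 ± 0.472%. Without LPC 18:3, whose intensities equal those of other masses, LPC 16:0 held 47.3 ± 1.60%, with a range of 45.6 to 49.4%. The widest ranges were those of LPC 18:0, at 9.72 to 19.8%, and LPC 18:2, at 18.6 to 28.7%. LPC 18:3 ran from 2.41 to 4.75% and LPC 16:1 from 0.72 to 1.80%. The share of LPC 16:0 varied little although its intensity differed more than 2-fold between samples. It is itself a large part of the sum, which damps changes in its share.

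**Figure D4:**
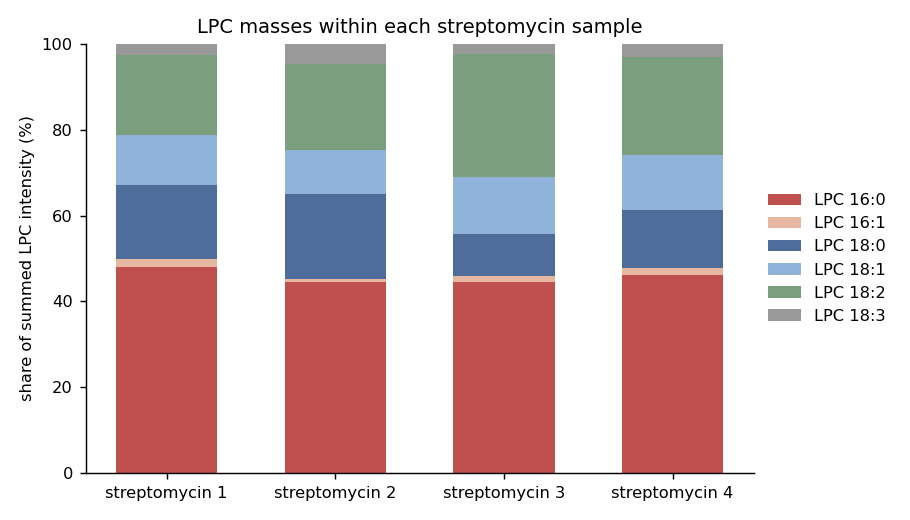
Stacked bars of the share of summed LPC intensity (percent) held by each LPC mass in each of the 4 streptomycin samples. LPC 16:0 takes 44.4 to 48.1% of every bar, and LPC 18:0 takes 9.72 to 19.8%.

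Compounds differing by a single structural step were compared within streptomycin samples, where 8 pairs could be formed: 2 differed in chain length, 4 in a double bond and 2 in head group. Their exact sign-flip test cannot go below p = 0.125 with 4 samples, or 0.25 with 3, so the ratios are given as values. The 16-carbon saturated chain exceeded the 18-carbon one, with LPC 16:0 over LPC 18:0 at 2.78, 2.24, 4.58 and 3.38 in samples 1 to 4. For chains with a double bond the order was the other way, and LPC 16:1 over LPC 18:1 was 0.0693 to 0.155. LPC 16:1 was 0.0162 to 0.0375 of LPC 16:0. LPC 18:2 over LPC 18:1 was 1.60 to 2.15, and LPC 18:3 over LPC 18:2 was 0.0842 to 0.238. The intensities of LPC 18:3 equal those of other masses, as given below. LPC 18:1 over LPC 18:0 was 0.524 to 1.37 and above 1 in 1 of 4 samples, so these did not keep 1 order. The choline form exceeded the ethanolamine form 3.57- to 16.5-fold for the 18:0 chain, and 5.73- to 24.7-fold for 18:2 in the 3 samples that listed both. Thus 7 of the 8 pairs were ordered alike in every sample with both masses. Head groups and chains can ionise unequally, so these ratios are of intensities and not of amounts. With 1 member measured in all 8 samples, 0 pairs of members could be compared for their response to the drug.

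Some of the member masses have partners at the spacing of another ion form. The intensities listed for LPC 18:3 equal those of the masses 518.3245 and 482.3477 Da in all 8 streptomycin acquisitions. These lie 1.0074 Da above, about a proton (1.0073 Da), and 34.9694 Da below, a chloride ion. The mass at 518.3245 Da was also listed in untreated samples, at 0.838, 1.00, 1.21 and 1.04, and averaged 3.63 ± 0.701 in streptomycin samples and 1.02 ± 0.152 in untreated samples (SD, n = 4 each). Its log2 difference was 1.82 ± 0.18 (SE), with an adjusted p of 0.000158 in the limma fit of masses listed in both groups. The intensities given to LPC 18:3 in streptomycin samples thus also stand under a mass that every untreated sample listed.

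A mass 1 sodium-for-hydrogen exchange below LPC 18:1, at 499.3664 Da, had intensities in untreated samples alone, namely 6.15, 2.95, 3.33 and 2.35. The like mass below LPC 18:0, at 501.3817 Da, likewise had them in untreated samples alone, namely 1.84, 1.02, 1.08 and 0.80. Their part in the listing of LPC 18:1 and LPC 18:0 at 0 there was not tested. Some partners were stronger than the member. The mass at 457.3404 Da, which with hydrogen chloride gives the mass of LPC 16:1, had 4.67, 7.25, 4.90 and 5.28 in streptomycin samples and 0 in untreated samples, or 209 to 1351% of LPC 16:1. The mass at 443.3612 Da, which with potassium for hydrogen gives that of LPE 18:0, had 3.82, 3.93, 0 and 3.90 in streptomycin samples and 0 in untreated samples, up to 301% of LPE 18:0. A mass at 499.3063 Da, at the spacing of water lost from LPC 18:3, stood at 372 to 540% of LPC 18:3. It averaged 15.6 ± 6.38 in streptomycin samples and 7.59 ± 2.44 in untreated samples (SD, n = 4 each). In the limma fit of masses listed in both groups it had a log2 difference of 1.02 ± 0.33 (SE). The masses at 464.3369 and 500.3137 Da had the same difference and SE. Whether the 499.3063 Da mass comes from LPC 18:3 was not tested. Whether the intensity under LPC 16:1 or LPE 18:0 belongs to the lysophospholipid or to another ion form was not tested. That under LPC 18:3 is shared by the 3 masses 482.3477, 517.3171 and 518.3245 Da, so it is not particular to this formula. Masses at 452.2678, 487.2372 and 488.2444 Da likewise shared 1 log2 difference and SE, 1.38 ± 0.29, in the limma fit of masses listed in both groups. Which of the formulas the LPC 18:3 intensity belongs to was not tested. The other partners were weaker. At 485.3717 Da, hydrogen chloride below LPC 18:1, the intensity was 8.88 to 15.7% of that member. The mass at the spacing of LPC 18:2 minus water, 501.3222 Da, stood at 27.05 to 60.7% of LPC 18:2 and was also listed in 3 untreated samples. It had the same log2 difference and SE as the mass at 466.3528 Da, 2.13 ± 1.51, in the same limma fit. Untreated sample 1 had 0 for the 501.3222 Da mass, so this difference rests in part on the constant put in for 0. The mass a proton above LPC 18:2, at 520.3401 Da, stood at 2.46 to 5.42% of LPC 18:2. LPC 16:0 minus water, at 477.3220 Da, appeared in streptomycin samples alone, with 6.15 to 8.94% of LPC 16:0. LPE 18:0 also lies 1 methylene below LPC 16:0, at 1.79 to 12.5% of its intensity. Over the 9 unmatched formulas and 10 ion forms, 1 of 90 combinations had a mass, LPI 16:0 with hydrogen chloride at 608.2734 Da. This mass had 106.6, 154.7, 123.9 and 114.7 in streptomycin samples and 69.2, 68.0, 61.6 and 67.7 in untreated samples. Its log2 difference was 0.90 ± 0.15 (SE) in the limma fit of masses listed in both groups, where the calibrant masses had 0.39 and 0.46. Whether it is LPI 16:0 was not tested, and a single hit among 90 looked up is weak ground for the name.

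Related lipids were looked up in the same way from lists of formulas. Diacyl phospholipids, the parents of lysophospholipids, were matched by 6 of 19 formulas. All 6 masses were higher in streptomycin samples in the limma fit of all masses, as were 52.7% of all masses. Of the 6, 4 were listed there only, as were 47.3% of all masses. For each related mass listed in 1 group only, the call rests on the constant put in for 0. PC 34:2 averaged 15.8 ± 5.70 in streptomycin samples and 2.91 ± 0.530 in untreated samples (SD, n = 4 each), with an adjusted p of 0.000259 in the limma fit of masses listed in both groups. PC 34:1 averaged 7.46 ± 1.56 in streptomycin samples and 2.03 ± 2.00 in untreated samples, and its untreated values ran from 0.18 to 3.92. The 2 listed in both groups, PC 34:2 and PC 34:1, were also higher in the limma fit of such masses, PC 34:1 with an adjusted p of 0.0415. In that fit 18.3% of masses were higher and 36.2% lower. The second acquisition of PC 34:1 in untreated sample 1 was 11.5 times the first, and untreated sample 3 listed it in 1 of its 2 acquisitions. Free fatty acids, the other product of the phospholipase step, had 7 masses for 6 formulas, of which the fit of all masses called 3 higher and 3 lower. The formula of the fatty acid 18:3 counts on both sides, since its mass at 278.2250 Da was listed in streptomycin samples only and that at 278.2244 Da in untreated samples only. Among the lower ones, the fatty acid 18:2 mass at 280.2395 Da averaged 2044 ± 280 in untreated samples and was listed there only. It lay −2.61 ppm from its formula, beyond the stated mass accuracy of 2 ppm. Of the 3 fatty acid masses listed in both groups, 1 was higher and 1 lower in the fit of such masses. Monoacylglycerols, products of fat digestion, had 4 masses, all called lower in the fit of all masses, as were 36.7% of all masses. In the fit of masses listed in both groups 2 of 3 were lower, the monoacylglycerol 18:1 had an adjusted p of 0.0727 in limma, and the 20:4 form was listed in untreated samples only. Head groups left after the loss of both chains matched 0 of 6 formulas, and 24 further lysophospholipid formulas matched 0 masses.

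LPC 16:0 was then set against each of 8 related masses with an intensity in all 8 samples, by the log2 ratio within a sample (exact two-sided permutation test, Benjamini-Hochberg adjusted over 8). This comparison was added after the data were seen. The ratio to the fatty acid 16:0 was higher in streptomycin samples by 2.56 on the log2 scale (97.1% interval 1.06 to 3.62), and that to the fatty acid 16:1 by 3.26. The difference was 5.97 against the fatty acid 18:1, and 5.14, 5.07 and 3.82 against the monoacylglycerols 18:3, 18:2 and 18:1. Each of these 6 had an exact p of 0.0286, the smallest that 4 against 4 samples allow, and an adjusted p of 0.0381. Without streptomycin sample 1 the 6 differences were 2.44 to 5.85, and 3 against 4 samples cannot go below an exact p of 0.0571. Against PC 34:2 the difference was 0.97 (interval −0.34 to 2.28, exact permutation p = 0.114, adjusted 0.131). Against PC 34:1 it was 0.52 (interval −2.65 to 3.40, exact permutation p = 0.686, adjusted 0.686), and the intervals hold both no difference and a difference of more than 2-fold. All 8 ratios hold the same LPC 16:0 values. Only 7 of the 633 masses listed in both groups had a larger log2 difference than LPC 16:0, so its ratio to most masses would rise. The share of all masses that pass this test was not computed. The 6 passes therefore cannot be read as particular to fatty acids or monoacylglycerols.

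**Figure D5:**
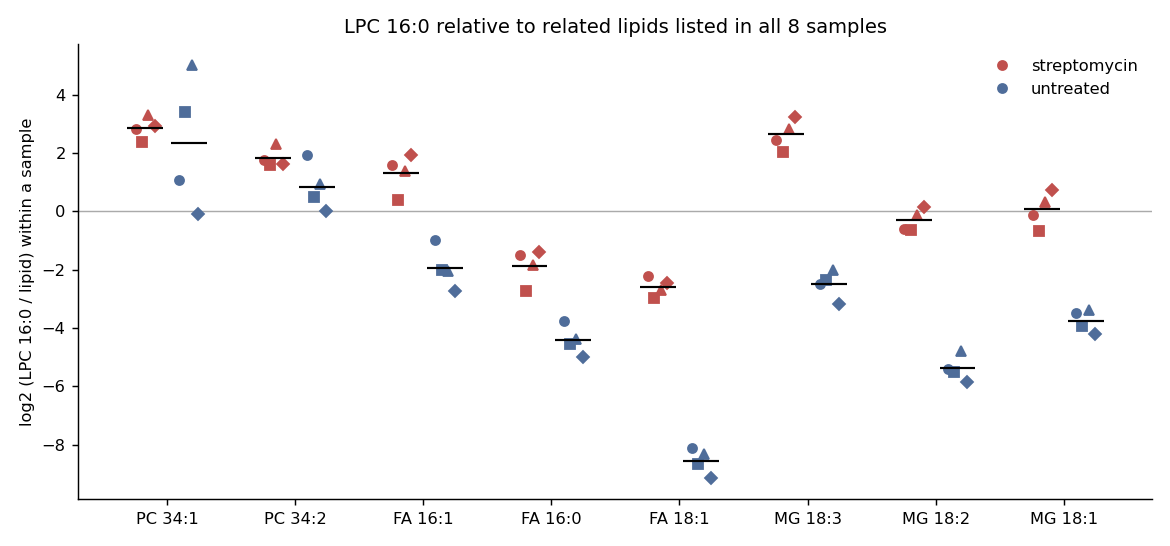
Log2 ratio of LPC 16:0 to each of 8 related masses (FA, free fatty acid; MG, monoacylglycerol) in the 4 streptomycin and 4 untreated samples, with 1 point per sample, marker shape for the sample number and a black line at the group mean. The groups separate for the fatty acids and monoacylglycerols and overlap for PC 34:1 and PC 34:2.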

How the data were processed

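Per the labels, acetonitrile extracts of faeces were infused in positive and negative ion mode over m/z 150 to 1100, with 200 scans per spectrum and a mass accuracy within 2 ppm. The authors deposited a relative intensity (linear) for each neutral mass in each acquisition. The sources used here do not give what it is relative to or how modes were joined. The table gives no ion mode or depth, and the number of samples limits the precision.

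Formula masses were computed with pyteomics 5.0.1 and matched within 3 ppm. The acquisitions of a sample were averaged. For limma 3.58.1 (R 4.3.3), 0 was set to 0.0738, the lowest sample value, and values were log2 transformed. A mass needed 3 samples of a group to be tested, unblocked, at an adjusted p of 0.05. A mass counted as listed in both groups if at least 1 sample of each had an intensity. Of the 633 such masses, 539 had an intensity in all 8 samples, and the others also used the value put in for 0. The fit was also run on simulated data made from masses listed in all samples. These held no 0, so the value put in for 0 was not tested by them. Every matched lysophospholipid mass is named. Related lipids serve as comparison, and not all of them are named. Python 3.11.15 with pandas 2.3.3 and scipy 1.17.1 was used. Alternatives were other values for 0, detection filters, scalings, tolerances, single acquisitions, the methods' t-test, a replicate block and leaving out samples. Members and lists were chosen with earlier results of these data known.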

Additional observations from a re-analysis of the deposited data

How the results depend on the processing

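Between 6 and 8 lysophospholipid masses were called higher, and 0 lower, under every alternative run, with 7 of the 8 calls resting on a constant put in for 0. Over all masses the count called higher ran from 744 of 2429, with an intensity of 1 for 0, to 1340 of 2429, with the median ratio. The member count was 6 of 6 tested when a mass had to be listed in all 8 acquisitions of a group, where 856 of 1694 masses were higher. It was 7 of 8 tested with an intensity of 1 for 0. It was 7 of 7 tested at 1 ppm, or without streptomycin sample 2, 3 or 4. Leaving out the mass whose intensities equal another's, an alternative chosen after seeing the data, also gave 7 of 7. In these last settings the members missing from the count had left the test and had not lost a call. LPE 18:2 was called with the lowest sample value put in for 0 but not with an intensity of 1, so its call followed the constant. The log2 difference of LPC 16:0 ran from 2.94 with calibrant scaling to 3.76 with the median ratio, and from 3.16 to 3.60 when a sample was left out. Same-numbered samples correlated at 0.03 to 0.124 in their deviations. Streptomycin samples 1, 3 and 4 correlated most with the same-numbered untreated sample, and streptomycin sample 2 with untreated sample 1. The labels do not say whether the numbers are pairs, and the main fit did not take them as such. With a replicate block LPC 16:0 had an adjusted p of 0.000493 in limma. The response of pairs of lysophospholipid masses to the drug could not be compared between groups, since only LPC 16:0 had an intensity in all 8 samples. Of the 6 lipids whose ratio to LPC 16:0 differed, 0 passed in a paired exact test, which cannot go below p = 0.125, and 0 in each test without a sample, which cannot go below an exact p of 0.0571. The difference against PC 34:1 ran from −0.30, without untreated sample 4, to 1.41 when a sample was left out. Isomers, ion mode and listing at 0 limit every value above.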
